A study of Mus musculus with 2 samples.

Results

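The 36 genes described here are mouse genes with reported parent-of-origin expression, taken by symbol from a list of known imprinted genes and grouped into 15 chromosomal loci. They are 36 of the 55536 annotated genes in the deposited tables, and all 36 symbols matched 1 entry. Total RNA was sequenced from the gastrocnemius, a calf muscle, of male B6CASTF1/J mice aged 14 days, a hybrid of the C57BL/6J and CAST/EiJ strains. There was 1 group of 2 libraries, labelled biological replicates 1 and 2, each made from 300 ng of RNA with ERCC control RNAs added. No treatment, mutation or second condition was named, so the comparisons are between genes, between the libraries and between 2 quantifications of the same reads. The labels speak of 3 males and give both libraries the same donor identifier, so it is not settled that the libraries came from different animals. All tests below therefore measure only the spread between these libraries, which may be technical.

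Imprinted genes are expressed mainly or only from the copy inherited from 1 parent, because that copy and its partner carry different DNA methylation at a control region set in the germ line. They lie in clusters in which protein-coding genes, often active on the paternal copy, sit beside long noncoding RNAs that are active on the opposite copy. Many of them control prenatal and early postnatal growth, and several are known to be abundant in young skeletal muscle and to fall with age. The tables sum both alleles and the reference was not specific to CAST sequence. Parental origin is therefore given below as background and was not measured.

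Small RNAs are shown first because 45 genes of small RNAs lie within the spans of these members, 32 of miRNAs and 13 of snoRNAs. H19 holds miR-675, and the maternally expressed RNAs of the Dlk1-Meg3 locus hold most of the others. Mature sequences were found for 29 of the 32 miRNA genes in the RefSeq table, with 53 different seeds (bases 2 to 8, in capitals) among 54 mature forms. The first pair below comes from H19, the next 5 are encoded opposite to Rtl1, and the last pair, from Mirg, shares the 1 seed that occurs more than once.
mmu-miR-675-5p: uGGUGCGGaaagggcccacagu
mmu-miR-675-3p: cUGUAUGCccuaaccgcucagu
mmu-miR-127-3p: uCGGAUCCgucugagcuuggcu
mmu-miR-136-5p: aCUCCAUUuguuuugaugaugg
mmu-miR-431-5p: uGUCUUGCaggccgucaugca
mmu-miR-433-3p: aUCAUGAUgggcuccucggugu
mmu-miR-434-3p: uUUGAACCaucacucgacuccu
mmu-miR-496a-5p: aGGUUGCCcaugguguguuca
mmu-miR-453: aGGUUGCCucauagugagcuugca
Of the 7 miRNA genes in the span of Rtl1 that were matched, 6 are transcribed from the other strand. All 11 of their mature forms pair over their whole length with the 6358-base Rtl1 transcript. The site of miR-127-3p, for example, covers bases 2642 to 2663 of that transcript. This pairing follows from the opposite strands and is a description of the sequence only.

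The precursor genes themselves gave almost no reads. Mir433 had 8 counts in replicate 1 and 0 in replicate 2, and Mir1188, within Rian, had 1 count in each. The other 43 small RNA genes were listed at 0 in both libraries. Among all annotated genes, 2.17% of miRNA genes and 8.29% of snoRNA genes had any count. These genes are 62 to 124 bases long, so a value of 0 in this kind of library does not show that a mature small RNA was absent.

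Promoter sequence is shown for 4 loci where the choice or spacing of starts matters to the values below. RefSeq windows on GRCm38.p6 (250 bases before to 50 after a start) were found for 30 of the 36 members, as 42 windows. None was found for H19, Cdkn1c, Impact, Peg10, Rtl1 and Sgce. Each sequence reads 5′ to 3′ on the strand of its gene, ends on the base before the start, and has CG dinucleotides in capitals. For Gnas, the most upstream start (chr2:174284170-174284319, plus strand) makes the maternally expressed Nesp transcripts, and the most downstream RefSeq start (chr2:174329856-174330005, plus strand) makes the widely expressed form.
Gnas upstream start: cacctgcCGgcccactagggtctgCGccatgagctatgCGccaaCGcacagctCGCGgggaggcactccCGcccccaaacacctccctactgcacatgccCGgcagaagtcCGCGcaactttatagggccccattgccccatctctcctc
Gnas downstream start: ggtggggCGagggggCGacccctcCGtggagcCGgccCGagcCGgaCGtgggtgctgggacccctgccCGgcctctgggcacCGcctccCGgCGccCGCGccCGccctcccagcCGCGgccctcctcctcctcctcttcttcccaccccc
Grb10 also has a pair of RefSeq starts, one upstream (chr11:12037421-12037570, minus strand) and one downstream (chr11:12027972-12028121, minus strand).
Grb10 upstream start: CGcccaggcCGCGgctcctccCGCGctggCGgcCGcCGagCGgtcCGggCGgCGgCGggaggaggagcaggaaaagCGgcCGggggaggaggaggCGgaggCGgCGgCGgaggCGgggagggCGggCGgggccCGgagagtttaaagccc
Grb10 downstream start: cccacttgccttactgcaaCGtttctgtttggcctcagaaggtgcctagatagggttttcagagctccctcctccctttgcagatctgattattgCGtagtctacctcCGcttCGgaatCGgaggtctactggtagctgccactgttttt
The start of Mest that carried most of its RNA (chr6:30737900-30738049, plus strand) and the 163 bases between the opposed starts of Peg3 and Usp29 (chr7:6730420-6730582, plus strand, reading toward Usp29) complete the set.
Mest main start: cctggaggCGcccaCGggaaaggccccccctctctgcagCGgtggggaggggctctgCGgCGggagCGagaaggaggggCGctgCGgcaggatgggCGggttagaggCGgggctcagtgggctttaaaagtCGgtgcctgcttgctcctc
Peg3-Usp29 between starts: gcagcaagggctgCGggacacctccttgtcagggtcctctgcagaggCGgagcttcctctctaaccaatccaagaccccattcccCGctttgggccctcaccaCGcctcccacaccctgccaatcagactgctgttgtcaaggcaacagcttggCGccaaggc

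The 2 starts of Grb10 differ most in CG content among those printed. The 300-base window of the upstream Grb10 start held 45 CG dinucleotides, more than 98.1% of all 32851 windows in the table, and the downstream one held 9. The downstream Gnas start held 40 and the upstream one 16. Over all 42 member windows the median was 15.5, against 7 over all windows. The motif TGCCGC, which the imprint-protecting protein ZFP57 binds when methylated, was searched on both strands (as TGCCGC or GCGGCA). It occurred in 11 of 42 member windows (26.2%) and in 11.6% of all windows. The motif holds a CG dinucleotide, of which member windows had more, and the shares were not corrected for that. Overlapping Mest windows, with starts at 30738050 and 30738053, both count among the 11. So does a Zdbf2 window 72907 bases from the nearest GENCODE start of that gene. A match is a description of the letters, and no factor binding or methylation was measured here.

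The imprinted genes with any count ranged from a mean of 0.065 TPM (Rtl1) to 4072 TPM (H19), with H19 far above the rest. H19 alone made up 67.7 ± 1.15% of the summed TPM of the members (SD, n = 2), TPM being a level corrected for transcript length and scaled to a fixed sum. Gnas followed with 12.2 ± 0.722%, the 5 genes of the Dlk1-Meg3 locus with 9.41 ± 2.35%, and the 7 genes of the Kcnq1 locus with 5.52 ± 0.320%. Both libraries had 1 TPM or more for 25 of the 36, where 21.2% of all annotated genes and 34.6% of protein-coding and long noncoding genes did so. The members were chosen with earlier results of these data known, so these shares are a description only. The mean reached 10 TPM in 16 members and 100 TPM in 6. In these bulk samples, fewer cells of a type and less RNA per cell cannot be told apart.

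**Figure D1:**
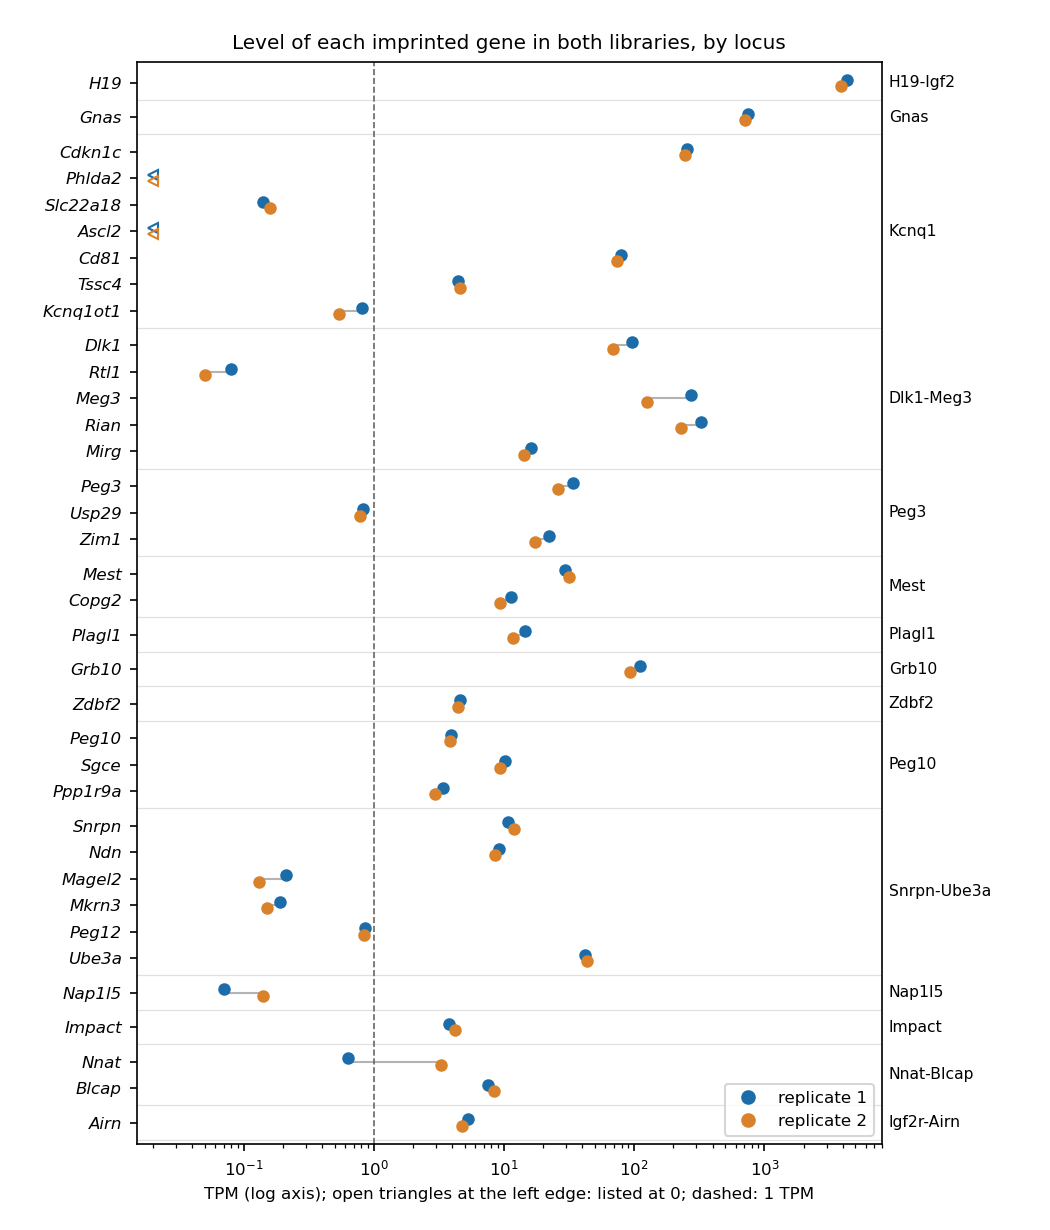
TPM (log axis) of each of the 36 imprinted genes in replicate 1 (blue) and replicate 2 (orange), grouped by locus, with the dashed line at 1 TPM and open triangles for genes listed at 0. H19 stood highest at 4293 and 3850 TPM, Phlda2 and Ascl2 were listed at 0, and Nnat and Meg3 show the widest gaps between libraries among the genes above 1 TPM on average.

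Expected counts totalled 40825601 and 37329025 with added RNAs included, so that 3 counts, taken as the floor, stood for 0.0735 and 0.0804 CPM of that total. The 5 fibre markers (Acta1, Ckm, Myh4, Tnnt3 and Mylpf) summed to 91128 and 97859 TPM. The 4 neuron markers Snap25, Rbfox3, Syt1 and Tubb3 were near 0, at 0.28 and 0.30 TPM in all. The 3 adipocyte markers Adipoq, Plin1 and Cfd summed to 2.26 and 14.6 TPM. The 4 fibroblast markers Pdgfra, Dcn, Col1a1 and Col3a1 summed to 2530 and 2046 TPM, of which Col1a1 made 1597 and 1118. Fibroblast markers are named again below beside Meg3, and adipocyte and neuron markers beside Nnat.

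H19, a maternally expressed long noncoding RNA and the host of miR-675, reached 4293 TPM in replicate 1 and 3850 in replicate 2. It ranked 29 of 55536 genes and 2 among long noncoding genes. The scaled count in replicate 2 was 0.943 times that in replicate 1 (95% exact interval 0.938 to 0.948, counting error only), which passed the exact binomial test on a count of 284034 and 241433 (adjusted p = 6.9e-98). Replicate 1 was the higher by a small margin. Its neighbour Igf2, the paternally expressed insulin-like growth factor that shares enhancers with H19, had 1276 and 1170 TPM. H19 stood 3.33 ± 0.0509 times above Igf2 (SD of the ratio, n = 2), with 3.36 in replicate 1 and 3.29 in replicate 2. As in later ratios, this SD is taken from 2 values and gives no measure of counting error. The second quantification, made directly from the reads, gave a ratio of 3.32. Transcript H19-202 carried 88.9 ± 1.73% of the TPM of the gene.

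Gnas, which encodes the alpha subunit of the stimulatory G protein, had 749 and 713 TPM and did not pass the binomial test between the libraries (adjusted p = 0.398). Its transcripts use several starts whose products are imprinted differently, so the starts were described separately, joining annotated starts closer than 500 bases. The downstream start, used from both copies in most tissues, carried 95.3% of Gnas TPM in replicate 1 and 96.7% in replicate 2. The upstream Nesp start carried 2.29% and 1.72%, and the start of the paternally expressed XL transcripts 0.384% and 0.289%. The start of the paternally expressed 1A transcripts carried 0.917% and 0.815% in the gene table's transcripts but 12.7% and 14.9% in the second quantification. The antisense RNA Nespas, which overlaps Gnas, had 0.35 and 0.29 TPM on 20 and 15 counts, and Gnas stood 2300 ± 226 times above it. The authors' interval bounds for Nespas were 0.245 to 0.613 and 0.188 to 0.545 TPM, so this ratio is less certain than its SD.

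The Kcnq1 locus held 1 abundant gene beside several near 0. Cdkn1c encodes p57, a cyclin-dependent kinase inhibitor that holds back growth. Its level was 255 and 243 TPM, without passing the test (adjusted p = 0.267). Cd81, a tetraspanin of the cell surface whose imprinting is known mainly from the placenta, had 79.3 and 74.3 TPM. Tssc4 had 4.44 and 4.57 TPM. Phlda2, a placental growth regulator, and Ascl2, a transcription factor of trophoblast and intestinal stem cells, were listed at 0 with no count in either library. Slc22a18, a membrane transporter, had 5 counts in each. Thus Cdkn1c was high while its neighbours Phlda2 and Slc22a18, maternally expressed in the placenta, were at or near the floor.

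Kcnq1ot1 is the paternally expressed antisense RNA that silences this locus on its own copy. It reached 0.81 and 0.54 TPM, from 2413 and 1503 counts spread over an annotated transcript of 93092 bases. Its level per length was under 1 TPM although its counts exceeded those of Mest in replicate 1. Its scaled count was 0.691 times as high in replicate 2 (0.647 to 0.737, adjusted p = 4.1e-28 by the exact binomial test). Cdkn1c stood 383 ± 96.0 times above it. Kcnq1, which it overlaps on the other strand, had 0.62 and 0.38 TPM, and it is not stated whether reads were counted by strand. The same limit holds for the other overlapping pairs on opposite strands: Gnas and Nespas, Mest and Copg2, Blcap and Nnat, and Igf2r and Airn.

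All 5 genes of the Dlk1-Meg3 locus had lower values in replicate 2, and 4 of them passed the binomial test as higher in replicate 1, as did 10.5% of all genes tested. Meg3, Rian and Mirg are maternally expressed noncoding RNAs. Rian hosts snoRNAs and Mirg a cluster of miRNAs. Rian had 327 and 228 TPM, Meg3 271 and 124 TPM, and Mirg 16.1 and 14.1 TPM. Replicate 1 was the higher library for all 3, with scaled count ratios (replicate 2 over 1) of 0.727, 0.503 and 0.854. Dlk1, a transmembrane relative of Notch ligands expressed from the paternal copy, had 96.3 and 68.7 TPM (ratio 0.701, 0.668 to 0.736, adjusted p = 4.6e-46 by the exact binomial test). Rtl1, a retrotransposon-derived gene whose loss is known to harm muscle and placenta, had 0.08 and 0.05 TPM on 16 and 10 counts and did not pass. Dlk1 stood 1288 ± 120 times above Rtl1 and 752 ± 16.0 times above Dio3, a thyroid hormone-inactivating deiodinase with 8 and 5 counts. At such counts these SDs understate the uncertainty. The authors' interval bounds of the TPM were 0.075 to 0.296 and 0.043 to 0.245 for Dio3. For Rtl1 they were 0.046 to 0.123 and 0.025 to 0.091.

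Meg3 was the member of this locus that also passed the stricter edgeR exact test (adjusted p = 0.0118). That test adds the dispersion estimated over all genes to counting error. The dispersion came from these same 2 libraries, so passing marks a difference beyond that of most genes and is no independent support. The 95% exact interval of the Meg3 count ratio was 0.484 to 0.521. In TPM the libraries differed by 1.12 on the log2 scale with a pseudocount of 1, past 2-fold, while the scaled counts and the second quantification (267 and 136 TPM) stayed under 2-fold. Meg3 reads were divided over transcripts from 6 groups of starts, of which none reached 30% on average in the gene table's transcripts. Meg3-203, of 457 bases, took 28.0 ± 3.30% there but 1.72% in the second quantification. The Meg3 to Rian ratio went from 0.829 in replicate 1 to 0.545 in replicate 2, and was 0.438 in the second quantification. Beside these genes, the nuclear RNAs Malat1 (1275 and 825 TPM) and Neat1 (78.4 and 64.1 TPM), chosen after their values were seen, were also higher in replicate 1. So were 3 of 4 fibroblast markers (Pdgfra, Dcn and Col1a1). The other, Col3a1, had 729 and 744 TPM and passed the binomial test as higher in replicate 2. The 3 endothelial markers Pecam1, Cdh5 and Kdr summed to 119 and 103 TPM, and the first 2 passed the binomial test as higher in replicate 1. The 3 smooth muscle and pericyte markers Myh11, Acta2 and Rgs5 summed to 311 and 302 TPM, and Myh11 passed in that direction. Their part in the result was not tested.

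**Figure D2:**
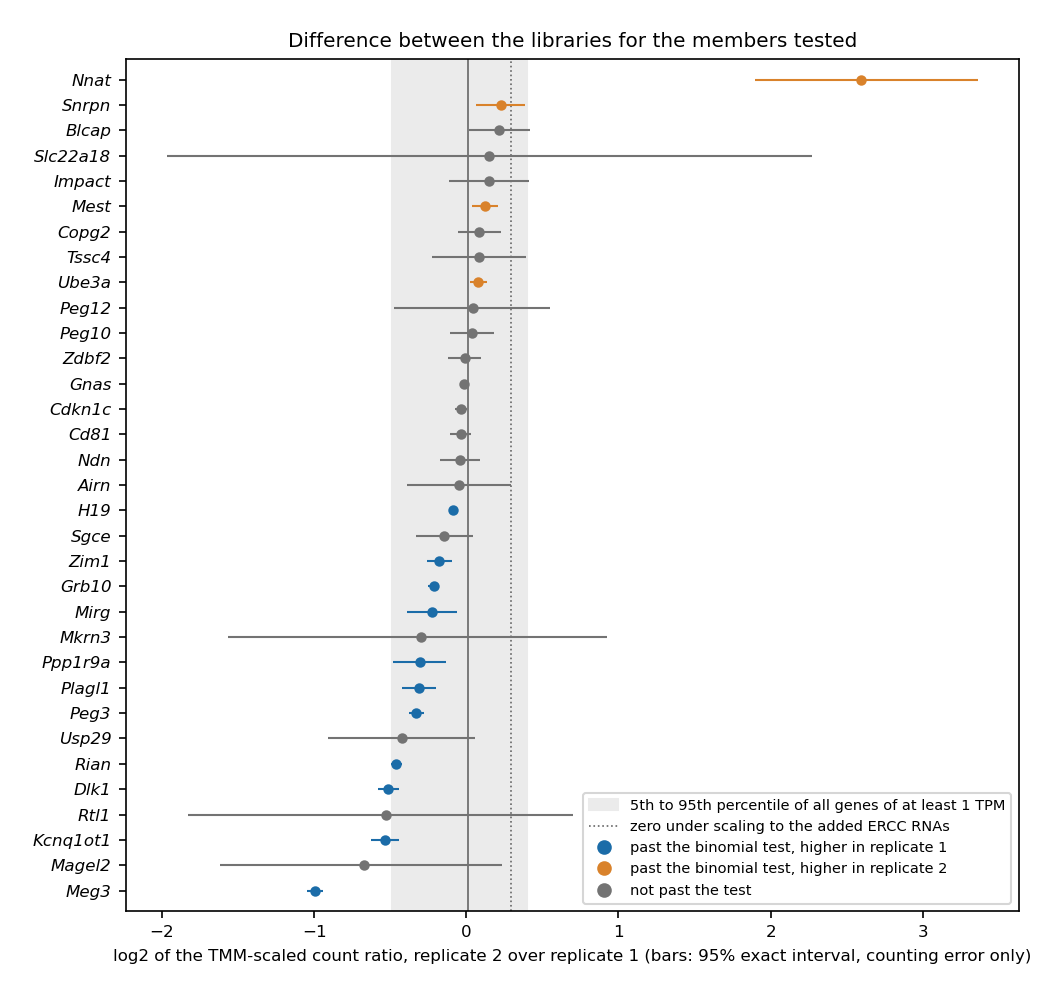
Log2 ratio of TMM-scaled counts, replicate 2 over replicate 1, for the 33 members tested, with 95% exact intervals for counting error; the band spans the 5th to 95th percentile of genes of at least 1 TPM. Meg3 and Nnat lie far outside the band, and 27 of 33 members lie inside it.

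Members of the Peg3 locus were also higher in replicate 1. Peg3, a paternally expressed zinc finger gene known in muscle stem cells, had 34.1 and 25.8 TPM (count ratio 0.796, adjusted p = 6.7e-37 by the exact binomial test). Zim1, a maternally expressed zinc finger gene beside it, had 22.0 and 17.3 TPM (ratio 0.884, adjusted p = 2.1e-04 by the same exact test). Usp29, a ubiquitin peptidase gene, had 0.83 and 0.78 TPM on 92 and 62 counts and did not pass. The annotated starts of Peg3 and Usp29 lie 147 bases apart on opposite strands, across the stretch printed above. Peg3 stood 37.1 ± 5.63 times above Usp29, with 41.1 in replicate 1 and 33.1 in replicate 2. Peg3 and Zim1, reported to be active on opposite parental copies, stood within 1.52 ± 0.0418 times of each other.

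Ratios between genes whose starts adjoin were also given for Sgce and Peg10, paternally expressed genes on opposite strands with annotated starts 99 bases apart. Sgce, the epsilon-sarcoglycan of the dystrophin complex, had 10.1 and 9.24 TPM, and Peg10, a retrotransposon-derived gene, 3.88 and 3.86 TPM. Sgce stood 2.50 ± 0.144 times above Peg10 per length. In counts, with no length term, Peg10 was the higher, at 807 and 748 against 525 and 428. Neither passed the test between libraries. Ppp1r9a, which encodes the actin-binding protein neurabin, had 3.39 and 2.93 TPM (adjusted p = 0.0043 by the exact binomial test, higher in replicate 1). Asb4, a neighbour with 4.18 and 2.95 TPM, was above Peg10 in replicate 1 and below it in replicate 2, so no order was resolved.

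**Figure D3:**
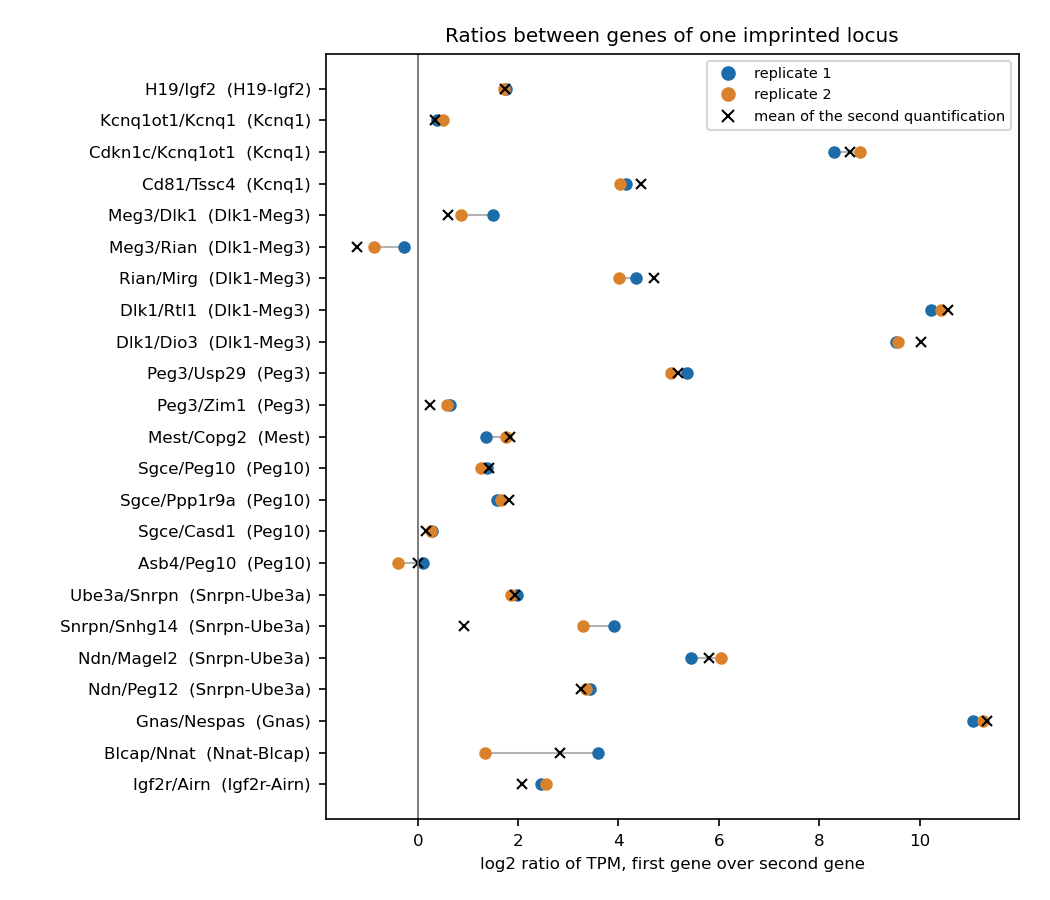
Log2 ratio of TPM for the 23 gene pairs of one locus that have values, in replicate 1 (blue), replicate 2 (orange) and as the mean of the second quantification (crosses). In 21 pairs the first gene was higher in both libraries, Meg3 was below Rian in both, and Asb4 to Peg10 changed sign. Which gene comes first was set when the pairs were listed, so the 21 is no result in itself. Blcap to Nnat shows the widest gap.

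Among the growth regulators that stand alone, Grb10, an adaptor that restrains insulin receptor signalling, had 110 and 93.3 TPM (ratio 0.862, 0.841 to 0.883, adjusted p = 2.4e-32 by the exact binomial test). It is expressed from the maternal copy in most tissues and from the paternal copy in neurons, through different starts. Its upstream start carried 81.3% of the gene's TPM in replicate 1 and 80.2% in replicate 2. The downstream RefSeq start, shown above with few CG dinucleotides, carried 4.06% and 3.73%. A further group of starts about as far downstream carried 12.4% and 14.6%, most of it on Grb10-207, of 430 bases, which the second quantification listed at 0. The group as a whole still carried 9.55% and 9.05% there. Plagl1, a paternally expressed zinc finger factor, had 14.6 and 11.6 TPM (adjusted p = 1.2e-06 by the same exact test). Zdbf2 had 4.56 and 4.40 TPM, and Impact, a translation regulator, had 3.80 and 4.18 TPM. Neither of those passed.

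Mest, a paternally expressed gene of the hydrolase fold family, had 29.1 and 31.8 TPM, and its neighbour Copg2, a subunit of the COPI vesicle coat, 11.3 and 9.35 TPM. Mest passed the exact binomial test as higher in replicate 2 by a factor of 1.09 (adjusted p = 0.031), and Copg2 did not pass. In the gene table's transcripts, 99.4% and 99.2% of Mest TPM came from the start printed above. The second quantification gave that start 71.6% and 81.7%, and gave 27.8% and 17.6% to a start further upstream that the first listed at 0.

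The Snrpn-Ube3a locus, whose loss underlies Prader-Willi and Angelman syndromes, was led by Ube3a, a ubiquitin ligase that is imprinted in neurons, with 41.8 and 43.7 TPM. Snrpn, which encodes a spliceosomal protein, had 10.7 and 12.0 TPM. Both passed as higher in replicate 2, by factors of 1.06 and 1.17 (adjusted p = 0.027 and 0.030 by the exact binomial test). Ndn, the growth suppressor necdin, had 9.14 and 8.57 TPM. Magel2 (0.21 and 0.13 TPM), Mkrn3 (0.19 and 0.15 TPM) and Peg12 (0.85 and 0.84 TPM), known mainly from the nervous system, stayed under 1 TPM. Ndn therefore stood 54.7 ± 15.8 times above Magel2 and 10.5 ± 0.389 times above Peg12. The noncoding Snhg14 had 0.71 and 1.23 TPM in the gene table, against 6.98 and 7.90 TPM in the second quantification. The Snrpn to Snhg14 ratio was thus 12.4 ± 3.71 in one and 1.91 in the other. Snhg14 had 77 and 62 counts in the gene table, at average transcript lengths of 3480 and 1778 bases. The ratio there fell from 15.0 to 9.77 in TPM, while the log2 ratio of counts rose from 3.02 to 3.41. Snurf, within the span of Snrpn on the same strand, had 34.1 and 33.6 TPM in the gene table and was listed at 0 in the second quantification. How the division of reads between Snurf and Snrpn bears on the Snrpn level and ratios was not tested.

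The gene table assigned all Snrpn TPM to transcript Snrpn-201, while the second quantification assigned all of it to Snrpn-202, whose start lies upstream. The level of the gene was 1.25 times as high in the second quantification, close to the median of 1.35 over the members. Peg10 showed the same exchange between 2 transcripts of nearly equal length. Peg10-203 carried 89.0 ± 15.5% in the first and 0.0276% in the second. For both genes the level is given here and the transcript in use was not resolved.

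**Figure D4:**
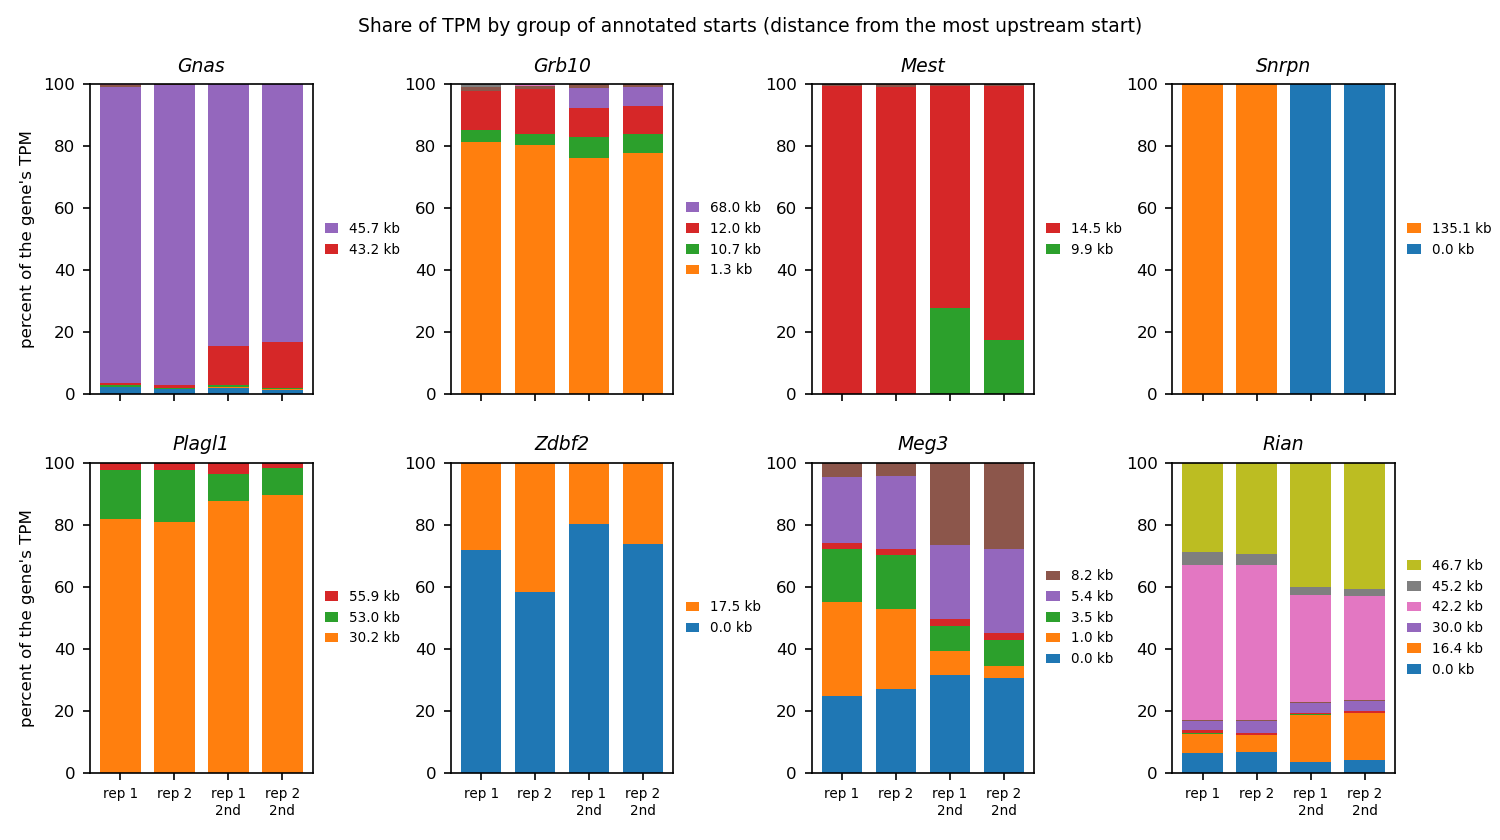
Percent of TPM by group of annotated starts for 8 members, in both libraries and both quantifications (2nd: the second quantification); the legend gives the distance from the gene's most upstream annotated start, for groups of at least 3%. Gnas, Grb10 and Plagl1 kept the same leading group in all 4 columns, while Snrpn went from all on one start to all on the other.

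Nnat had the widest gap between the libraries, in the opposite direction to Meg3. It encodes neuronatin, a small membrane protein of brain, endocrine and fat tissue, and is expressed from the paternal copy. In replicate 1 it had 0.63 TPM on 20 counts, and in replicate 2 it had 3.29 TPM on 109 counts. The scaled count was 6.05 times as high in replicate 2 (95% exact interval 3.73 to 10.3), which passed the exact binomial test (adjusted p = 1.7e-16) and the edgeR exact test (adjusted p = 5.9e-08). Its whole span lies within Blcap on the other strand, and Blcap, expressed from both copies outside the brain, had 7.56 and 8.30 TPM and did not pass. In the second quantification Blcap did pass as higher in replicate 2, at a log2 count ratio of 0.27. The Blcap to Nnat ratio was 12.0 in replicate 1 and 2.52 in replicate 2. All 3 adipocyte markers moved the same way, Adipoq from 0.42 to 2.24, Plin1 from 0.22 to 2.07 and Cfd from 1.62 to 10.3 TPM, while the neuron markers were near 0 in both. The part of fat tissue in the Nnat difference was not tested. Nap1l5, another paternally expressed gene, had 3 and 6 counts and was not tested.

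Airn, the paternally expressed antisense RNA that silences Igf2r in many tissues, had 5.26 and 4.74 TPM on 157 and 137 counts. Igf2r, the scavenger receptor for Igf2, had 29.0 and 27.9 TPM. Igf2r stood 5.70 ± 0.259 times above Airn, and neither passed the test between the libraries. They overlap by 28354 bases on opposite strands, and it is not stated whether reads were counted by strand. The Airn level rests on average transcript lengths of 1032 and 1064 bases within a span of 118826. The pair was also apart in the second quantification, with a ratio of 4.23.

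Across the members, 33 had the 10 counts needed for the binomial test and 15 passed, 11 as higher in replicate 1 and 4 as higher in replicate 2. Of all 17245 genes tested, 20.9% passed, 10.5% as higher in replicate 1 and 10.4% as higher in replicate 2. Members were more deeply counted than the average gene, with a median of 1669 counts over both libraries against 463. Among genes of at least 1000 counts, 38.0% passed, and 14 of 21 members of that depth did. With the edgeR exact test 2 of 32 members passed, Meg3 and Nnat, against 0.742% of all genes (0.448% as higher in replicate 1 and 0.294% as higher in replicate 2). The same 2 were over 2-fold apart in TPM, against 1.1% of genes averaging 1 TPM or more (0.584% as higher in replicate 1 and 0.518% as higher in replicate 2). The median log2 difference (replicate 2 minus replicate 1) was -0.10 over the 26 members of that level and -0.04 over all such genes. The authors' interval bounds of the TPM did not overlap between the libraries for 9 of those 26, against 13.2% of all such genes, not matched for depth. For some genes the bounds do not hold the TPM itself. H19 in replicate 1, for example, had 4293 TPM and bounds of 4187 to 4227.

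The 11 higher in replicate 1 and the 4 higher in replicate 2 depended in part on the scaling. With total counts in place of TMM scaling the split was 13 to 1, while 20.5% of all genes tested passed, 2010 to 1526 in the same order. Mest, Snrpn and Ube3a then no longer passed, and Gnas and Cdkn1c passed as higher in replicate 1, at log2 count ratios of -0.03 and -0.05. Scaling to the added ERCC RNAs moved the median of all genes to -0.28 on the log2 scale, and the split was then 22 to 1. Of all genes tested 51.8% passed with that scaling, 8642 to 289, so the lean toward replicate 1 was shared by genes at large. By product, 5 of the 6 noncoding members passed, all as higher in replicate 1, and 10 of the 27 protein-coding members tested did, 6 in that direction. Of all genes tested, 9.02% of long noncoding genes passed, 74 of 108 as higher in replicate 1, and 22.7% of protein-coding genes. The noncoding members were far more deeply counted than that class, with a median of 8650 counts over both libraries against 33. At 1000 counts or more, 24 of 38 long noncoding genes and 2207 of 5861 protein-coding genes passed. Of the members at that depth, which are among those genes, 5 of 5 noncoding and 9 of 16 protein-coding ones did. By reported parental origin, 5 of 7 maternal members tested passed, all as higher in replicate 1. Of all genes tested 20.9% passed, 10.5% in that direction. The 5 were H19, Zim1 and the neighbours Meg3, Rian and Mirg of 1 locus. Those neighbours and H19 are also among the noncoding members that passed, so these counts are not independent. Of 18 paternal members tested 7 passed, 4 as higher in replicate 1, and of 8 members with tissue-dependent origin 3 passed, 2 in that direction. The groups also differed in depth, with medians of 13383 counts for maternal, 1120 for paternal and 4228.5 for tissue-dependent members tested. The difference between the groups was not tested.

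Genes known to act on imprints were measured in the same libraries. Of 11 listed, 8 had at least 1 TPM in both. The de novo methyltransferase Dnmt3a led with 53.9 and 61.1 TPM and passed as higher in replicate 2 (adjusted p = 1.1e-29 by the exact binomial test). Trim28, the corepressor recruited by ZFP57 and ZFP445, had 30.2 and 31.8 TPM. Zfp445 had 16.3 and 11.7 TPM and Zfp57 had 0.67 and 0.55 TPM, the first passing as higher in replicate 1. The maintenance methyltransferase Dnmt1 had 5.25 and 3.95 TPM and passed in that direction too. Ctcf had 15.6 and 15.2 TPM, Setdb1 4.70 and 4.94, Smchd1 6.32 and 4.79, Uhrf1 2.43 and 1.88 and Dnmt3b 0.55 and 0.62 TPM, none passing, and Dppa3 was listed at 0.

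Beyond the 36 members, 45 further imprinted genes were counted. At least 1 TPM in both libraries was reached by 26, and 8 of 38 tested (21.1%) passed the binomial test, 6 as higher in replicate 1, a share near the 20.9% of all genes tested. The 4 highest were Igf2, Dcn (187 and 172 TPM), Slc38a4 (82.7 and 76.4 TPM) and Nctc1 (85.7 and 58.1 TPM), a noncoding gene downstream of H19. Nctc1 was 0.699 times as high in replicate 2 (adjusted p = 7.0e-72 by the exact binomial test).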

How the data were processed

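For each library the authors deposited gene and transcript tables derived from alignments to the transcriptome. A second quantification of transcripts was derived from reads and an index without that step, per the deposited description. Both used mm10 with annotation M21, and no tool is named in the sources used here. The deposited expected counts are estimated reads, rounded here for tests. In the deposited TPM values, the authors divided by length and scaled to a fixed sum over all entries. The interval bounds of the TPM were deposited by the authors too.

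Members and lists were chosen with earlier results of these data known. All members are named, with their partners in 24 pairs, the maintenance genes and the 4 highest of the other imprinted genes. Library scaling and the exact test with a common dispersion used edgeR 4.0.16, with DESeq2 1.42.0 size factors as an alternative, in R 4.3.3. That dispersion was estimated from the 2 libraries that the test compares, which holds down the share passing. The two-sided exact binomial test (scipy 1.17.1) was run on genes whose counts over both libraries reached 10, and adjusted by Benjamini-Hochberg over all of them at 0.05. It compares libraries, not conditions, covers counting error only, and was tested on simulated data. Gene positions and starts are from GENCODE M21, of the same build as the tables. Loss of reads from CAST alleles was not examined.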

Additional observations from a re-analysis of the deposited data

How the results depend on the processing

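With 0.5 or 5 TPM as the limit, the second quantification, rescaled TPM or either library alone, the count of members detected stayed within 1.5 times of 25. The count past the binomial test was 23 with totals of added ERCC RNAs and 2 with the edgeR exact test, which adds dispersion. Of all genes tested, 51.8% and 0.742% passed in those settings. With ERCC scaling 10 members went from above to below 0 in log2 count ratio (replicate 2 over 1). The 5 of them that passed the test under TMM or ERCC scaling stood at -0.21 for Ube3a, -0.21 for Copg2, -0.17 for Mest, -0.25 for Peg10 and -0.064 for Snrpn, where Copg2 and Peg10 had not passed with TMM. The count over 2-fold apart was 1 in the second quantification (Nnat), 1 with a minimum mean of 5 TPM (Meg3) and 1 with TMM-scaled CPM (Nnat); the cause was not tested. As log2 ratios of counts, with no length term, Sgce/Peg10 was -0.71, Sgce/Ppp1r9a -0.20 and Sgce/Casd1 -0.73, against ratios above 0 in TPM. The share of H19 was 69.4% of expected counts. Groups of starts were a choice made after seeing the data; with gaps of 100 or 1000 bases, or in the second quantification, the count of members with a leading group stayed within 1.5 times of 30. No paired analysis was possible because there is 1 group. Depth limits Rtl1, Magel2, Mkrn3, Slc22a18 and Nap1l5, for which no difference was detectable at these counts.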
